A study of Mus musculus with 18 samples.

Results

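Members of the Notch2 pathway, 10 genes in all, were followed through B-cell maturation and activation in WT and Sh3gl1-/- mice. They comprised the receptors Notch1 and Notch2, the nuclear mediators Rbpj and Maml2, the targets Dtx1, Hes1 and Hes5, the glycosyltransferases Mfng and Lfng, and the protease Adam10. The genes were listed by name for their roles in Notch signalling and in the marginal zone fate, and 10 of 10 were found among the 51912 genes of the table. RNA was sequenced from C57BL/6 B cells of WT mice and of Sh3gl1-/- littermates, which lack endophilin A2, a membrane-bending protein of endocytosis, in the whole animal and not in B cells alone. Each genotype contributed transitional cells (B220+ CD93+ by the study's gates) and mature follicular cells (B220+ CD93-, gated by CD23 and CD21/35), both taken ex vivo and untreated, and in addition follicular cells after culture with CD40L, through which helper T cells engage CD40 on B cells. Each of these 6 groups had 3 libraries, and the study speaks of 3 mice per genotype for sorted follicular cells, the cells to which its description of the RNA work is limited. The labels give 14 h for the culture, while the study's methods and legends give other durations, and the ages of the mice are not in the labels.

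Notch2 is the receptor that directs splenic transitional B cells into the marginal zone lineage when it meets the ligand Dll1 on stromal cells. Ligand binding lets Adam10 cut the receptor outside the membrane, gamma-secretase then releases the intracellular domain, and this domain joins Rbpj and a Mastermind-like protein on target genes such as Dtx1 and Hes1. The Fringe enzymes Lfng and Mfng add sugars to the receptor that favour binding of Delta-like ligands.

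The 18 libraries held 12404665 to 18366011 counts each, so that 3 counts, the upper limit that a count of 0 allows, correspond to 0.163 to 0.242 counts per 1000000 (CPM). That limit covers counting error only. Sh3gl1 itself had 377 to 929 counts in the WT libraries and 1 to 22 in the Sh3gl1-/- libraries, as the labels have it for every library. All 7 B-cell markers exceeded 3 counts in every library, and the transitional markers Rag1 and Rag2 were at 0 in all 6 ex vivo follicular libraries. The B-cell markers summed to 12177.7 to 12782.5 CPM in WT and 10987.9 to 11752.6 CPM in Sh3gl1-/- follicular cells ex vivo. After CD40L the sums were 9330 to 9682 and 8449 to 9043 CPM. In transitional cells they overlapped, at 16032 to 18613 and 12544 to 16213 CPM. The part of these shifts in the values of the members was not tested. RNA of other cells was present and differed with genotype. The summed level of 5 erythroid genes was 2281 to 3974 CPM in WT and 4442 to 9514 CPM in Sh3gl1-/- transitional cells, that of 7 neutrophil genes 52.8 to 96.8 and 111 to 565 CPM, and that of 5 plasma cell genes 493 to 721 and 1148 to 4602 CPM. In follicular cells ex vivo, 7 T-cell genes summed to 81.9 to 99.2 CPM in WT and 149 to 192 CPM in Sh3gl1-/- libraries. The 7 macrophage and monocyte genes summed to 616 to 1058 CPM in the transitional and 114 to 288 CPM in the ex vivo follicular libraries. In such bulk samples fewer cells of a type and less RNA per cell cannot be told apart.

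Levels were compared between genes on the TPM scale, which accounts for transcript length. In WT follicular cells the abundant members were Mfng (33.7 ± 4.19 TPM, SD, n = 3), Adam10 (29.7 ± 2.47 TPM), Dtx1 (29.5 ± 4.76 TPM) and Notch2 (27.2 ± 1.85 TPM), and each overlapped its neighbour in this order. Below them came Maml2 (18.4 ± 1.14 TPM) and Rbpj (11.3 ± 2.42 TPM), each apart from its neighbours, and then Lfng (5.85 ± 0.980 TPM) and Hes1 (5.77 ± 0.759 TPM), which overlapped. Notch1 (0.717 ± 0.216 TPM) and Hes5 (0.377 ± 0.229 TPM) were lowest. Notch2 was thus the main Notch receptor transcript, at 12.9 to 55.2 times the TPM of Notch1 in the same library, with a median of 22.2 over the 18 libraries. Notch3 and Notch4, the remaining receptors, passed the filter on low counts in none of the comparisons.

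The order was similar in WT transitional cells, where Adam10 led (39.1 ± 6.14 TPM), followed by Mfng (31.4 ± 4.12 TPM), Dtx1 (27.3 ± 4.83 TPM) and Notch2 (18.5 ± 2.24 TPM). Notch2 there lay apart from Dtx1 above it and from Maml2 (13.6 ± 1.43 TPM) below it. After CD40L culture the WT order was Mfng (23.9 ± 1.10 TPM), Adam10 (22.9 ± 1.97 TPM), Rbpj (17.1 ± 2.23 TPM), Notch2 (8.54 ± 2.07 TPM) and Dtx1 (4.18 ± 1.75 TPM). Rbpj had moved up in the order by the measure of TPM, above Notch2, Dtx1 and Maml2, whereas Dtx1 and Maml2 (3.06 ± 0.315 TPM) overlapped near the lower end, above Hes1 (0.620 ± 0.144 TPM). The Sh3gl1-/- orders differed from these only in exchanges among Adam10 and Mfng, in the transitional and cultured cells.

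**Figure D1:**
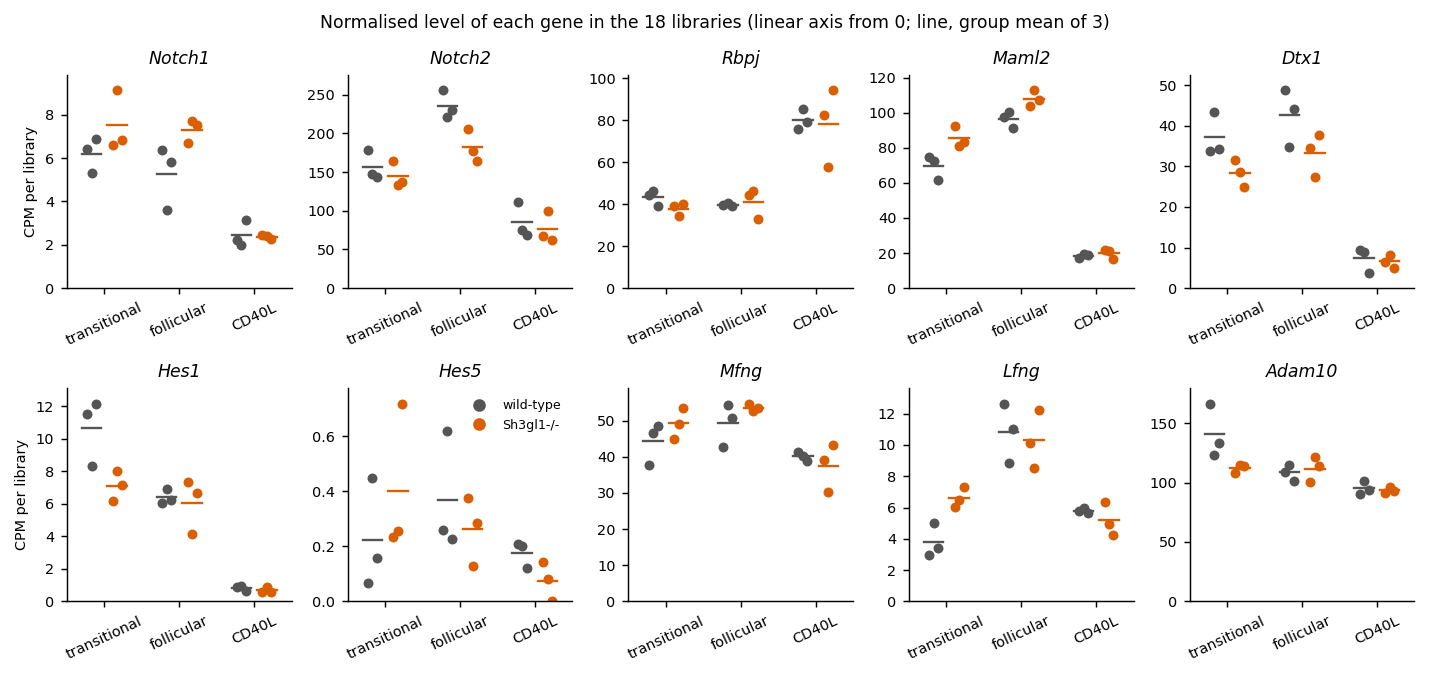
CPM of the 10 genes in each of the 18 libraries (y axis, linear from 0), with WT (wild-type) libraries in grey, Sh3gl1-/- libraries in orange and a line at the mean of each group of 3. Notch2 and Lfng were higher in WT follicular than in WT transitional cells, and after CD40L Rbpj was higher while Notch1, Notch2, Dtx1, Hes1, Lfng and Maml2 were lower in both genotypes.

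Hes5, a target gene of the Hes family, stood at 0 to 10 counts in every library, or at most 0.719 CPM, and did not pass the filter on low counts in any comparison. All tests below therefore covered 9 of the 10 members. Hes1, its family member, was readily counted ex vivo at 65 to 169 counts, but had only 8 to 14 counts per library after CD40L culture.

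The promoters of 8 of the 10 members were found in the RefSeq table of GRCm38.p6, each as 300 bases from 250 before to 50 after the annotated start. They were searched on both strands for TGGGAA, the core of the Rbpj binding motif, and for GTGGGAA, a longer match that contains it. Of 32851 promoters of the same length, 25.6% held TGGGAA, 6.38% held GTGGGAA and 0.256% held GTGGGAA at least 2 times. Hes5 and Lfng are shown because they were the members with a match to the longer motif, Hes5 with 2 and Lfng with 1 beside a further TGGGAA. The 30-base windows below run 5′ to 3′ on the strand of the gene (plus for both), with the core motif in capitals, which reads TTCCCA where it lies on the opposite strand.
Hes5, chr4:154960685-154960714: agggcgagcgcgTTCCCAcagcccggacat
Hes5, chr4:154960829-154960858: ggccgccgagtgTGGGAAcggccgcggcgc
Lfng, chr5:140607194-140607223: ccagctgggtggTTCCCAgccccttgtccg
Lfng, chr5:140607221-140607250: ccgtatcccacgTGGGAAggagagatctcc
The Rbpj promoters held the core motif alone, as did the Maml2 promoter at chr9:13662210-13662509. The Maml2 promoter at chr9:13297708-13298007 and those of Notch1, Notch2, Dtx1 and Adam10 had no match. A match of letters is a description and not a binding site. The Hes5 promoter, with both matches to the longer motif, belonged to the member with the lowest level, and the Lfng promoter to the member with the largest difference between WT transitional and follicular cells.

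The first comparison asked whether the pathway differed in Sh3gl1-/- cells within each cell state. With the quasi-likelihood test of edgeR and p-values adjusted after Benjamini and Hochberg over all genes tested, 0 of 9 members were called in transitional cells at an adjusted p under 0.05, where 3.73% of all 13774 genes tested were called. DESeq2 also called 0. At an unadjusted p under 0.05 there were 5 members, against 21.8% of all genes. For the same 5 of 9 the libraries of the genotypes did not overlap, against 28.0% of all genes tested. Of these, Dtx1, Hes1 and Adam10 had lower values in Sh3gl1-/- cells (14.4% of all genes lay lower without overlap), and Lfng and Maml2 had higher values (13.6% of all genes). For 3 libraries against 3, the two-sided exact permutation test gave its smallest possible p of 0.1 for each of the 5. That value follows from the lack of overlap and is no separate support.

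Dtx1 (chr5:120680202-120711927 of GRCm38, as for all genes here, minus strand) encodes Deltex1, an E3 ubiquitin ligase and a target of Notch2 in marginal zone B cells. In transitional cells it stood at 33.9, 43.4 and 34.2 CPM in the WT libraries and at 31.5, 28.5 and 24.9 CPM in the Sh3gl1-/- libraries, so that all 3 Sh3gl1-/- values lay below the WT range. The log2 difference was -0.39 (SE 0.14, 95% CI -0.70 to -0.08), with an adjusted p of 0.138 by edgeR's quasi-likelihood test.

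Hes1 (chr16:30064384-30067796, plus strand), a transcriptional repressor and general Notch target, stood at 11.5, 8.34 and 12.2 CPM in WT and at 6.15, 8.04 and 7.19 CPM in Sh3gl1-/- transitional cells. The highest Sh3gl1-/- library was just under the lowest WT library. The log2 difference was -0.58 (SE 0.22, 95% CI -1.07 to -0.10, adjusted p 0.158 by edgeR).

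Adam10 (chr9:70678997-70780229, plus strand), the protease of the first cut, stood at 166, 123 and 134 CPM in WT and at 108, 114 and 114 CPM in Sh3gl1-/- transitional cells. The WT libraries varied more than the Sh3gl1-/- libraries, led by the first WT replicate. The log2 difference was -0.33 (SE 0.12, 95% CI -0.59 to -0.07, adjusted p 0.141 by edgeR).

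Lfng (chr5:140607320-140615545, plus strand) encodes Lunatic Fringe. It stood at 2.94, 4.99 and 3.40 CPM in WT and at 6.04, 6.51 and 7.33 CPM in Sh3gl1-/- transitional cells, with every Sh3gl1-/- library above the WT range. The log2 difference was 0.81 (SE 0.27, 95% CI 0.20 to 1.42, adjusted p 0.125 by edgeR), from 43 to 67 counts per WT library and 102 or 103 per Sh3gl1-/- library.

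Maml2 (chr9:13297957-13709388, plus strand) encodes a Mastermind-like co-activator. It stood at 74.8, 72.3 and 61.8 CPM in WT and at 92.2, 81.2 and 83.2 CPM in Sh3gl1-/- transitional cells, again without overlap. The log2 difference was 0.30 (SE 0.10, 95% CI 0.07 to 0.53, adjusted p 0.128 by edgeR). Genes that lie within Maml2 on the same strand, Gm47087 and Phxr4, reached at most 750 and 529 counts in a library. Expected counts of Maml2 were not whole in 1 of 18 libraries, so reads divided between genes were rare for it. The part of Maml2 transcripts counted to these genes was not tested.

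The remaining members overlapped between the genotypes in transitional cells. Notch2 (chr3:98013527-98150361, plus strand) stood at 178, 148 and 144 CPM in WT and at 165, 133 and 138 CPM in Sh3gl1-/- cells, a log2 difference of -0.11 (95% CI -0.37 to 0.15). Rbpj (chr5:53466152-53657362, plus strand), the DNA-binding partner of the Notch intracellular domain, differed by -0.19 (95% CI -0.44 to 0.06) on the log2 scale. Notch1 (chr2:26457903-26516663, minus strand), the receptor best known for T-cell fate, differed by 0.28 (95% CI -0.23 to 0.80), and Mfng (chr15:78755882-78773475, minus strand), which encodes Manic Fringe, by 0.16 (95% CI -0.12 to 0.43). The interval was widest for Notch1, which had the lowest level of the 4.

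Markers moved with genotype in these same transitional libraries. The 7 marginal zone markers, all over 3 counts in every library, summed to 1351 to 1382 CPM in WT and 876 to 978 CPM in Sh3gl1-/- libraries, and 4 of 7 were called lower. The 6 transitional markers summed to 875 to 1010 CPM in WT and 506 to 804 CPM in Sh3gl1-/- libraries, and 1 of 4 tested was called lower. The 5 follicular markers summed to 4706 to 5972 and 5894 to 6624 CPM, with 1 called higher and 1 lower. The part of these B-cell types in the values of Dtx1, Hes1, Adam10, Lfng and Maml2 was not tested. Nor was that of the erythroid, neutrophil and plasma cell RNA given above.

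In follicular cells ex vivo, 0 of 9 members were called, where 0.845% of 13610 genes were called. At an unadjusted p under 0.05 there were 2 members, Notch2 and Dtx1, against 10.9% of all genes. The genotypes did not overlap for 3 of 9 members, against 16.0% of all genes tested. They were Notch2, with lower values in Sh3gl1-/- cells (7.98% of all genes lay lower without overlap), and Notch1 and Maml2, with higher values (8.06% of all genes). Notch2 stood at 256, 221 and 231 CPM in the WT libraries and at 206, 178 and 164 CPM in the Sh3gl1-/- libraries. Its log2 difference was -0.37 (SE 0.10, 95% CI -0.60 to -0.15), with an unadjusted p of 0.00365 and an adjusted p of 0.153 by edgeR's quasi-likelihood test. This result depended on the tool, since DESeq2 called Notch2 lower (log2 difference -0.37, adjusted p 0.0173), as did edgeR when all genes with at least 1 count were kept (adjusted p 0.00898). The exact permutation p was 0.1, the smallest it can be, which follows from the lack of overlap.

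Dtx1 stood at 48.7, 34.7 and 44.3 CPM in WT and at 34.6, 27.5 and 37.7 CPM in Sh3gl1-/- follicular cells, where the lowest WT library fell between Sh3gl1-/- libraries. Its log2 difference of -0.36 (SE 0.15, 95% CI -0.70 to -0.02) was close in size to that in transitional cells and had an adjusted p of 0.414 by edgeR. Notch1 stood at 6.35, 3.58 and 5.80 CPM in WT and at 6.69, 7.72 and 7.52 CPM in Sh3gl1-/- cells, a log2 difference of 0.48 (95% CI -0.10 to 1.06, adjusted p 0.572 by edgeR). T cells express Notch1, and the 7 T-cell markers, all over 3 counts in these libraries, were likewise higher in every Sh3gl1-/- follicular library, with 3 of 7 called. Their part in the Notch1 values was not tested.

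Maml2 stood at 97.8, 100.4 and 91.6 CPM in WT and at 104, 113 and 107 CPM in Sh3gl1-/- follicular cells, a log2 difference of 0.16 (95% CI -0.03 to 0.35, adjusted p 0.563 by edgeR). Hes1, Adam10 and Lfng, which did not overlap in transitional cells, overlapped in follicular cells. Their log2 differences were -0.08 for Hes1 (95% CI -0.67 to 0.50), 0.04 for Adam10 (95% CI -0.18 to 0.26) and -0.07 for Lfng (95% CI -0.54 to 0.39). Rbpj differed by 0.05 (95% CI -0.24 to 0.34) and Mfng by 0.12 (95% CI -0.12 to 0.36) on the same scale.

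After CD40L culture, 0 of 9 members were called, where 0.0227% of 13188 genes, or 3, were called and 932 genes, 7.07%, had an unadjusted p under 0.05. None of the 9 members had an unadjusted p under 0.05, and DESeq2 also called 0. The libraries overlapped for all 9, against 13.8% of all genes that did not overlap. The log2 differences ran from -0.26 for Hes1 (95% CI -1.38 to 0.86) to 0.14 for Maml2 (95% CI -0.25 to 0.54). Notch2 stood at 111, 75.6 and 69.2 CPM in WT and at 67.2, 99.4 and 62.1 CPM in Sh3gl1-/- cultured cells, a log2 difference of -0.13 (95% CI -0.65 to 0.38). In each genotype 1 library was well above the other two. The interval of Notch2 was wider here than in follicular cells ex vivo and holds the difference of -0.37 seen there.

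**Figure D2:**
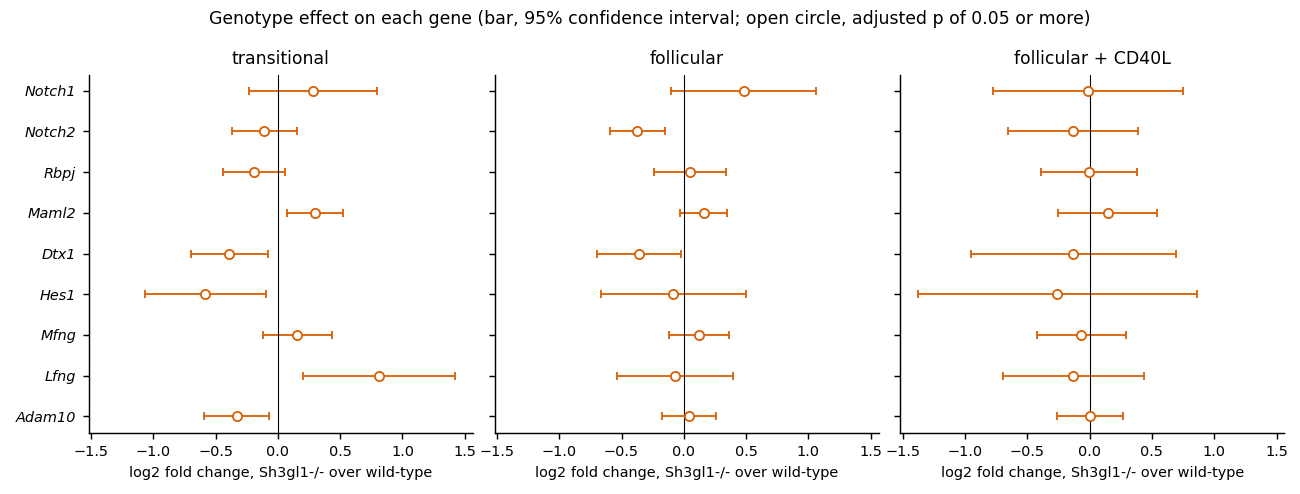
Log2 fold change of Sh3gl1-/- over WT cells (x axis) for the 9 members tested, in transitional, follicular and CD40L-cultured cells, with bars for the 95% confidence interval. All circles are open, since no adjusted p was under 0.05. The intervals of Dtx1, Hes1, Adam10, Lfng and Maml2 in transitional cells and of Notch2 and Dtx1 in follicular cells lie to 1 side of 0.

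The next comparison asked how the pathway differed between transitional and follicular cells and whether that step was altered in Sh3gl1-/- mice. In WT cells 5 of 9 members were called by edgeR's quasi-likelihood test, against 25.9% of all genes. Of the 5, 3 were higher in follicular cells, where 11.7% of all 14580 genes tested were called higher, and 2 were lower, where 14.2% were called lower. Their libraries did not overlap, as for 40.8% of all genes tested.

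The receptor Notch2 rose from 144 to 178 CPM in WT transitional cells to 221 to 256 CPM in WT follicular cells (log2 fold change 0.60, SE 0.11, adjusted p 0.00201 by edgeR). Lfng rose the most, from 2.94 to 4.99 CPM to 8.83 to 12.6 CPM (log2 fold change 1.53, SE 0.24, adjusted p 0.000489 by edgeR). Maml2 rose from 61.8 to 74.8 CPM to 91.6 to 100.4 CPM (log2 fold change 0.48, SE 0.09, adjusted p 0.00208 by edgeR). The receptor, a Fringe enzyme and a co-activator were thus higher in the more mature cells.

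Hes1 fell from 8.34 to 12.2 CPM to 6.03 to 6.92 CPM in WT cells (log2 fold change -0.73, SE 0.23, adjusted p 0.0334 by edgeR). Adam10 fell from 123 to 166 CPM to 102 to 115 CPM (log2 fold change -0.37, SE 0.11, adjusted p 0.0247 by edgeR). Both calls were less firm than those of Notch2, Lfng and Maml2. Blocking on replicate number within each genotype, the Hes1 change was -0.72 with an adjusted p of 0.0537. The Hes1 call was also lost without WT transitional replicate 1 or 3 or without any of the 3 WT follicular libraries, with adjusted p of 0.0564 to 0.104. Adam10 was not called without WT transitional replicate 1, where its log2 change was -0.23 (adjusted p 0.109), or without WT follicular replicate 1 (adjusted p 0.0661) or 3 (adjusted p 0.0847).

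Dtx1 did not follow Notch2 in this step beyond the spread between libraries, with 33.9 to 43.4 CPM in WT transitional and 34.7 to 48.7 CPM in WT follicular cells and a log2 difference of 0.20 (95% CI -0.13 to 0.54). Notch1 differed by -0.24 (95% CI -0.75 to 0.28), Rbpj by -0.11 (95% CI -0.38 to 0.15) and Mfng by 0.16 (95% CI -0.09 to 0.41) on the log2 scale. The 7 macrophage and monocyte markers were all called lower in WT follicular than in WT transitional cells, at a summed 114 to 147 against 631 to 825 CPM. Their part in the lower Hes1 and Adam10 values was not tested.

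In Sh3gl1-/- cells, 1 of 9 members was called for the same step, where 10.4% of all genes were called (3.70% higher and 6.71% lower). Libraries did not overlap for 2 of 9, against 30.4% of all genes. Maml2 rose from 81.2 to 92.2 CPM to 104 to 113 CPM (log2 fold change 0.33, SE 0.09, adjusted p 0.0354 by edgeR). That call was lost without Sh3gl1-/- transitional replicate 2 or 3 or without any of the 3 Sh3gl1-/- follicular libraries (adjusted p 0.0636 to 0.141). It was lost too when all genes with at least 1 count were kept (adjusted p 0.0502), where Notch2 was called instead (log2 difference 0.32, adjusted p 0.0294), and in the fit of all 18 libraries (adjusted p 0.0660). Notch2 stood at 133 to 165 CPM in transitional and at 164 to 206 CPM in follicular Sh3gl1-/- cells, a log2 difference of 0.32 (SE 0.11, 95% CI 0.07 to 0.56, adjusted p 0.0967 by edgeR). Blocking on replicate number within genotype, the same difference of 0.32 was called, with an adjusted p of 0.00924. Lfng stood at 6.04 to 7.33 and 8.55 to 12.2 CPM, a log2 difference of 0.63 (SE 0.23, adjusted p 0.101 by edgeR), without overlap. Hes1 differed by -0.25 (95% CI -0.75 to 0.26) and Adam10 by -0.02 (95% CI -0.25 to 0.22).

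A call in WT and none in Sh3gl1-/- cells does not show that the step differed, and the difference itself was tested with an interaction term. By this test 0 of 9 members were called, where 0.0686% of all genes, or 10, were called. DESeq2 called 0 members as well. At an unadjusted p under 0.05 there were 2 members, against 13.7% of all genes. Lfng had the largest difference, with a step that was smaller in Sh3gl1-/- cells by -0.90 on the log2 scale (SE 0.33, 95% CI -1.60 to -0.19, unadjusted p 0.0162, adjusted p 0.252 by edgeR). For Adam10 the difference was 0.35 (SE 0.16, 95% CI 0.02 to 0.69, unadjusted p 0.0393, adjusted p 0.338 by edgeR). The follicular libraries of the genotypes overlapped for both genes and the transitional libraries did not, though neither gene was called between genotypes in either state. The Notch2 difference was -0.28 (95% CI -0.63 to 0.07), and that of Hes1 was 0.48 (95% CI -0.23 to 1.19).

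The last comparison set CD40L-cultured against ex vivo follicular cells of each genotype, called the CD40L response here. No group was cultured without CD40L, so effects of CD40L and of the culture itself cannot be told apart. In WT cells 7 of 9 members were called, against 49.3% of all genes. Of these 1 was higher, where 23.6% of all 14460 genes tested were called higher, and 6 were lower, where 25.7% were called lower. The median log2 fold change was -1.12 over the 9 members and -0.08 over all genes tested. In Sh3gl1-/- cells 9 of 9 were called, against 42.4% of all genes, 1 higher and 8 lower, where 20.6% and 21.8% of all genes were called higher and lower. The Sh3gl1-/- median was -1.28 over the members and -0.03 over all genes. Libraries did not overlap for 8 of 9 members in WT and 9 of 9 in Sh3gl1-/- cells, against 56.5% and 53.2% of all genes tested.

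The target genes Hes1 and Dtx1 fell in both genotypes. Hes1 fell from 6.03, 6.92 and 6.25 CPM to 0.897, 0.936 and 0.612 CPM in WT cells (log2 fold change -2.99, SE 0.34, adjusted p 7.19e-06 by edgeR), and by -3.19 (SE 0.35, adjusted p 7.03e-06 by edgeR) in Sh3gl1-/- cells. Dtx1 fell from 48.7, 34.7 and 44.3 CPM to 9.39, 8.83 and 3.73 CPM in WT cells (log2 fold change -2.57, SE 0.29, adjusted p 7.60e-06 by edgeR). In Sh3gl1-/- cells it fell from 34.6, 27.5 and 37.7 CPM to 6.50, 8.23 and 4.95 CPM (log2 fold change -2.36, SE 0.29, adjusted p 2.35e-05 by edgeR). For both targets every cultured library was far below every ex vivo library.

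The co-activator Maml2 had the smallest p of the members. It fell from 91.6 to 100.4 CPM to 16.9 to 19.6 CPM in WT cells (log2 fold change -2.42, SE 0.12, adjusted p 3.73e-09 by edgeR), and from 104 to 113 CPM to 16.9 to 21.6 CPM in Sh3gl1-/- cells (log2 fold change -2.46, SE 0.12, adjusted p 3.33e-09 by edgeR). The receptors fell as well. Notch2 fell from 221 to 256 CPM to 69.2 to 111 CPM in WT cells (log2 fold change -1.50, SE 0.20, adjusted p 2.71e-05 by edgeR) and from 164 to 206 CPM to 62.1 to 99.4 CPM in Sh3gl1-/- cells (-1.28, SE 0.20, adjusted p 0.000147 by edgeR). Notch1, already low, fell by 1.12 (SE 0.28, adjusted p 0.00463 by edgeR) and by 1.64 (SE 0.28, adjusted p 0.000396 by edgeR) on the log2 scale. T-cell markers also fell, with 7 of 7 called lower in both genotypes, as did 5 of 5 erythroid, 5 of 7 neutrophil and 5 of 6 tested macrophage and monocyte markers in each genotype. The erythroid sum, for example, went from 1433 to 3865 CPM to 6.56 to 362 CPM in WT and from 2998 to 9350 CPM to 31.7 to 115 CPM in Sh3gl1-/- cells. The part of these cells in the lower values of Notch1 and the other members was not tested.

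Both Fringe genes had lower values with CD40L, with larger log2 fold changes for Lfng than for Mfng. The difference between these genes was not tested. Lfng fell from 8.83 to 12.6 CPM to 5.63 to 5.95 CPM in WT cells (log2 fold change -0.93, SE 0.22, adjusted p 0.00320 by edgeR), and by 1.01 (SE 0.22, adjusted p 0.00238 by edgeR) in Sh3gl1-/- cells. Mfng stood at 42.7 to 54.3 and 38.9 to 41.2 CPM in WT cells, a log2 difference of -0.33 (95% CI -0.61 to -0.04, adjusted p 0.0599 by edgeR), and fell by 0.53 (SE 0.14, adjusted p 0.00607 by edgeR) in Sh3gl1-/- cells. Mfng was called in WT cells without WT ex vivo follicular replicate 1 (adjusted p 0.0325) or without Sh3gl1-/- cultured replicate 2 (adjusted p 0.0361).

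Adam10 was the least altered, at 102 to 115 and 90.5 to 102 CPM in WT cells, a log2 difference of -0.22 (95% CI -0.44 to 0.00, adjusted p 0.0950 by edgeR). Its Sh3gl1-/- call (log2 fold change -0.28, adjusted p 0.0444 by edgeR) was lost when blocking on replicate number within genotype (-0.27, adjusted p 0.0565). It was also lost on leaving out any 1 of the 12 libraries other than Sh3gl1-/- ex vivo follicular replicate 1, with adjusted p of up to 0.244.

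Rbpj was the exception in direction. It rose from 39.7, 40.4 and 39.3 CPM to 75.7, 85.3 and 79.3 CPM in WT cells (log2 fold change 0.98, SE 0.16, adjusted p 0.000214 by edgeR). In Sh3gl1-/- cells it rose from 44.4, 46.3 and 32.9 CPM to 82.5, 57.9 and 94.2 CPM (log2 fold change 0.91, SE 0.16, adjusted p 0.000548 by edgeR). The DNA-binding partner was thus higher while the receptors, a co-activator and the targets were lower, in both genotypes.

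The response of 0 of 9 members differed between the genotypes by the interaction term, with adjusted p from 0.744 to 0.974 by edgeR. No gene at all (0% of 14460) was called for this difference, although 1278 genes, 8.84%, had an unadjusted p under 0.05 and DESeq2 called 29, none of them a member. The estimates ran from -0.52 for Notch1 (95% CI -1.37 to 0.33) to 0.22 for Notch2 (95% CI -0.36 to 0.80), and none of the 9 members had an unadjusted p under 0.05.

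**Figure D3:**
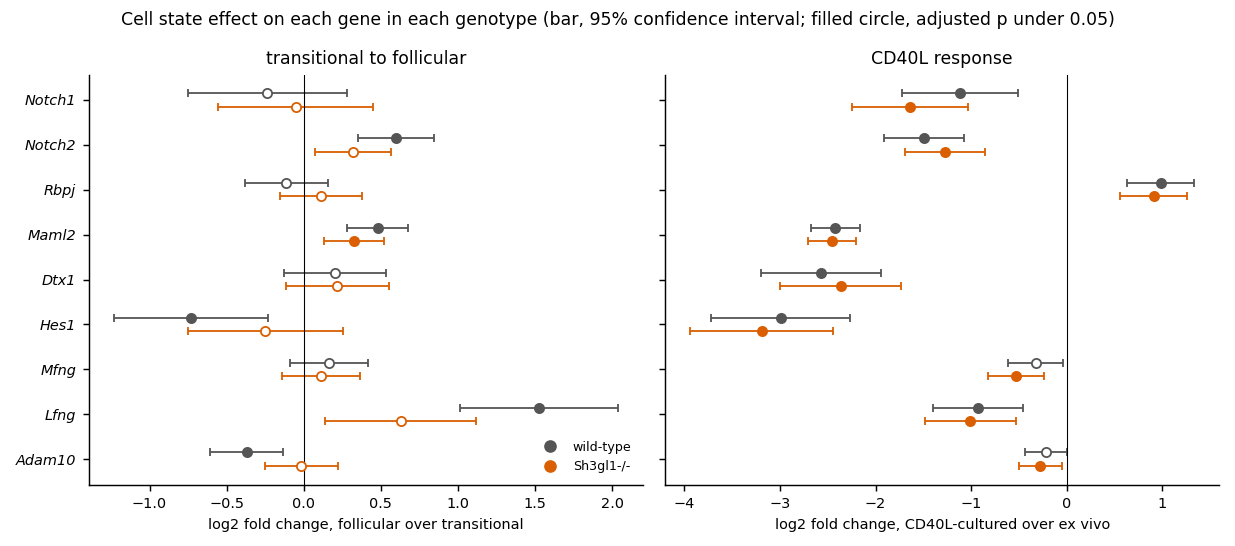
Log2 fold change (x axis) of follicular over transitional cells and of CD40L-cultured over ex vivo follicular cells for the 9 members tested, in WT (grey) and Sh3gl1-/- (orange) cells, with bars for the 95% confidence interval and filled circles for an adjusted p under 0.05. Rbpj lies to the right of 0 after CD40L, at 0.98 and 0.91, and the other 8 members lie to its left in both genotypes.

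A further 62 genes of the pathway, grouped by role, were read in the same fits. In transitional cells 48 of them were tested, and 5 fell and 0 rose in Sh3gl1-/- cells, where 2.48% of all genes were called lower and 1.26% higher. The median log2 difference of the 48 was 0.06, against 0.02 over all genes tested. They belonged to the cleavage machinery, the ubiquitin ligases and the targets. Adam17, a protease related to Adam10, fell from 152, 129 and 112 CPM to 90.5, 81.8 and 84.2 CPM (log2 fold change -0.62, SE 0.12, adjusted p 0.0287 by edgeR). Taok3, a kinase that promotes surface delivery of Adam10 in marginal zone precursors, fell from 173, 151 and 154 CPM to 103, 119 and 104 CPM (log2 fold change -0.55, SE 0.10, adjusted p 0.0257 by edgeR). Neither pair of groups overlapped, and Adam10 itself, described above, differed by -0.33 without being called.

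Nedd4, a ubiquitin ligase that acts on many membrane proteins, fell from 295, 250 and 255 CPM to 130, 182 and 125 CPM in Sh3gl1-/- transitional cells (log2 fold change -0.87, SE 0.15, adjusted p 0.0211 by edgeR). Il2ra, the interleukin 2 receptor alpha chain and a Notch target in T cells, fell from 23.6, 24.7 and 31.7 CPM to 10.7, 15.1 and 8.91 CPM (log2 fold change -1.20, SE 0.21, adjusted p 0.0246 by edgeR). Neurl1b, a ligase of Notch ligands, had 12, 12 and 9 counts in WT and 1, 0 and 1 in Sh3gl1-/- libraries, and was at least 4.10-fold lower against a floor of 3 counts per library. These 5 calls were not firm. Blocking on replicate number left 0 of them (adjusted p 0.0556 for both Nedd4 and Adam17), the fit of all 18 libraries left 1, and leaving out any 1 of the 6 transitional libraries left 0 to 3, while the log2 change of Adam17, for example, ran from -0.72 to -0.49.

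Nedd4 was the gene of this list that was also called in follicular cells, where 47 were tested and 0.360% of all genes were called lower and 0.485% higher. It fell from 71.6, 72.3 and 58.0 CPM to 34.1, 37.3 and 31.3 CPM (log2 fold change -0.98, SE 0.12, adjusted p 0.00382 by edgeR), which became -0.97 with an adjusted p of 0.237 in the fit of all 18 libraries. After CD40L its values were 69.9, 113 and 193 CPM in WT and 59.4, 33.6 and 77.0 CPM in Sh3gl1-/- cells, which overlapped (log2 difference -1.11, 95% CI -1.93 to -0.30, adjusted p 0.603 by edgeR). Adam17 and Taok3 differed by -0.15 (95% CI -0.37 to 0.08) and -0.08 (95% CI -0.32 to 0.15) in follicular cells. After CD40L 0 of 45 genes were called by edgeR and by DESeq2, and 5 had an unadjusted p under 0.05.

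Between WT transitional and follicular cells, 9 of 49 genes rose and 9 fell, where 11.7% of all genes were called higher and 14.2% lower. Among the genes that rose were Neurl3 (log2 fold change 1.20, SE 0.17), a ubiquitin ligase, Aes (0.78, SE 0.15), a co-repressor, and Cr2 (0.66, SE 0.12), the complement receptor CD21/35 that is also part of the gate for follicular cells. Those that fell with the lowest adjusted p were Nedd4 (-1.98, SE 0.14), Il2ra (-2.43, SE 0.27), Taok3 (-0.53, SE 0.10) and Dtx3l (-0.40, SE 0.09), a ligase of the Deltex family. By role, 5 of 10 genes of cleavage and gamma-secretase fell and 0 rose, among them Adam17 (-0.47, SE 0.11), while 3 of 12 co-repressors rose and 0 fell. In Sh3gl1-/- cells 2 rose and 3 fell, where 3.70% and 6.71% of all genes were called higher and lower, and the difference between genotypes was called for 0 of 49 by edgeR (12 at an unadjusted p under 0.05) and for 3 by DESeq2. With the block within genotype 8 were called in Sh3gl1-/- cells, and 1 difference was called, that of Il2ra (1.54, adjusted p 0.0307).

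With CD40L, 9 of 47 genes rose and 18 fell in WT cells, where 23.6% of all genes were called higher and 25.7% lower. In Sh3gl1-/- cells 11 rose and 15 fell, where 20.6% and 21.8% of all genes were called higher and lower, with 0 differences between genotypes called by edgeR or DESeq2 (5 at an unadjusted p under 0.05). Dtx4, of the same Deltex family as Dtx1, rose from 2.22 to 4.14 CPM to 13.8 to 16.2 CPM in WT cells (log2 fold change 2.22, SE 0.23, adjusted p 3.80e-06 by edgeR), opposite to Dtx1. Adam17 rose by 1.34 (SE 0.16, adjusted p 1.10e-05 by edgeR), while Adam10 was not called. Il2ra (3.35, SE 0.25) and the co-activator Snw1 (0.53, SE 0.10) were the others with the lowest adjusted p among the genes that rose.

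Among the genes that fell in WT cells with CD40L, Neurl3 (-3.34, SE 0.29), the acetyltransferase Kat2b (-1.66, SE 0.19), the co-repressor Tle4 (-1.02, SE 0.13) and Cr2 (-1.09, SE 0.14) had the lowest adjusted p. By role, 5 of 7 co-activators fell and 2 rose, and 5 of 12 co-repressors fell and 1 rose, where 49.3% of all genes were called in either direction. Counts of so few genes beside a share of this size are a description only. Myc, a Notch target in other cells and a gene of B-cell growth, rose from 107 to 127 CPM to 146 to 325 CPM in WT cells (log2 fold change 1.09, SE 0.23, adjusted p 0.00143 by edgeR). Its Sh3gl1-/- values were 132 to 151 and 148 to 227 CPM (log2 difference 0.49, 95% CI 0.00 to 0.99, adjusted p 0.0992 by edgeR).

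Of the other genes often read as part of this pathway, Nrarp, Hey1 and Dll1 were at or near the floor. Nrarp, a feedback inhibitor and Notch target, had 0 counts in 17 libraries and 3 counts in 1, and Hey1, a Hes-related target, had at most 1 count in any library. Dll1, the ligand of Notch2 in the marginal zone, had 0 to 34 counts per library, and its genotype differences ex vivo were 0.39 (95% CI -0.90 to 1.69) in transitional and 0.65 (95% CI -0.56 to 1.85) in follicular cells. In WT cells it had 15, 9 and 22 counts ex vivo and 2, 4 and 0 after CD40L, a call that was lost without WT ex vivo follicular replicate 3 or without WT cultured replicate 1 or 3. Spen, which encodes MINT, a repressor that competes with Notch for Rbpj, stood at 13.4 to 17.2 CPM in the 12 ex vivo libraries. Its genotype differences were 0.02 (95% CI -0.32 to 0.36) in transitional and -0.04 (95% CI -0.38 to 0.30) in follicular cells. After CD40L it stood at 15.7 to 29.0 CPM in WT and at 22.6 to 34.7 CPM in Sh3gl1-/- cells. For the CD40L response, edgeR called Spen higher in cultured than in ex vivo follicular cells of Sh3gl1-/- mice. That call was lost without Sh3gl1-/- ex vivo follicular replicate 3 or cultured replicate 2. In WT cells the main edgeR fit made no call for this response, while DESeq2 did (log2 fold change 0.58, adjusted p 0.0367). EdgeR called it with RLE normalization (adjusted p 0.0453), with all genes of at least 1 count (0.0265) and with all 18 libraries (0.0292). The replicate block (adjusted p 0.0383) and the block within genotype (0.0415) gave the call as well. The genotype difference in this response was not called. Cr2 had lower values in every Sh3gl1-/- library than in any WT library of the same state, without being called by the main edgeR fits (log2 differences -0.36, -0.35 and -0.48, adjusted p 0.108, 0.214 and 0.545 by edgeR). Of all genes tested, 14.4% in transitional and 7.98% in follicular cells lay lower without overlap. After CD40L 13.8% did not overlap, in either direction. DESeq2 called Cr2 lower in transitional (adjusted p 0.0208) and in follicular cells (adjusted p 0.0457). So did edgeR with all genes of at least 1 count kept (adjusted p 0.0154 and 0.000696). With the replicate block edgeR called it in follicular cells (adjusted p 0.0155).

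**Figure D4:**
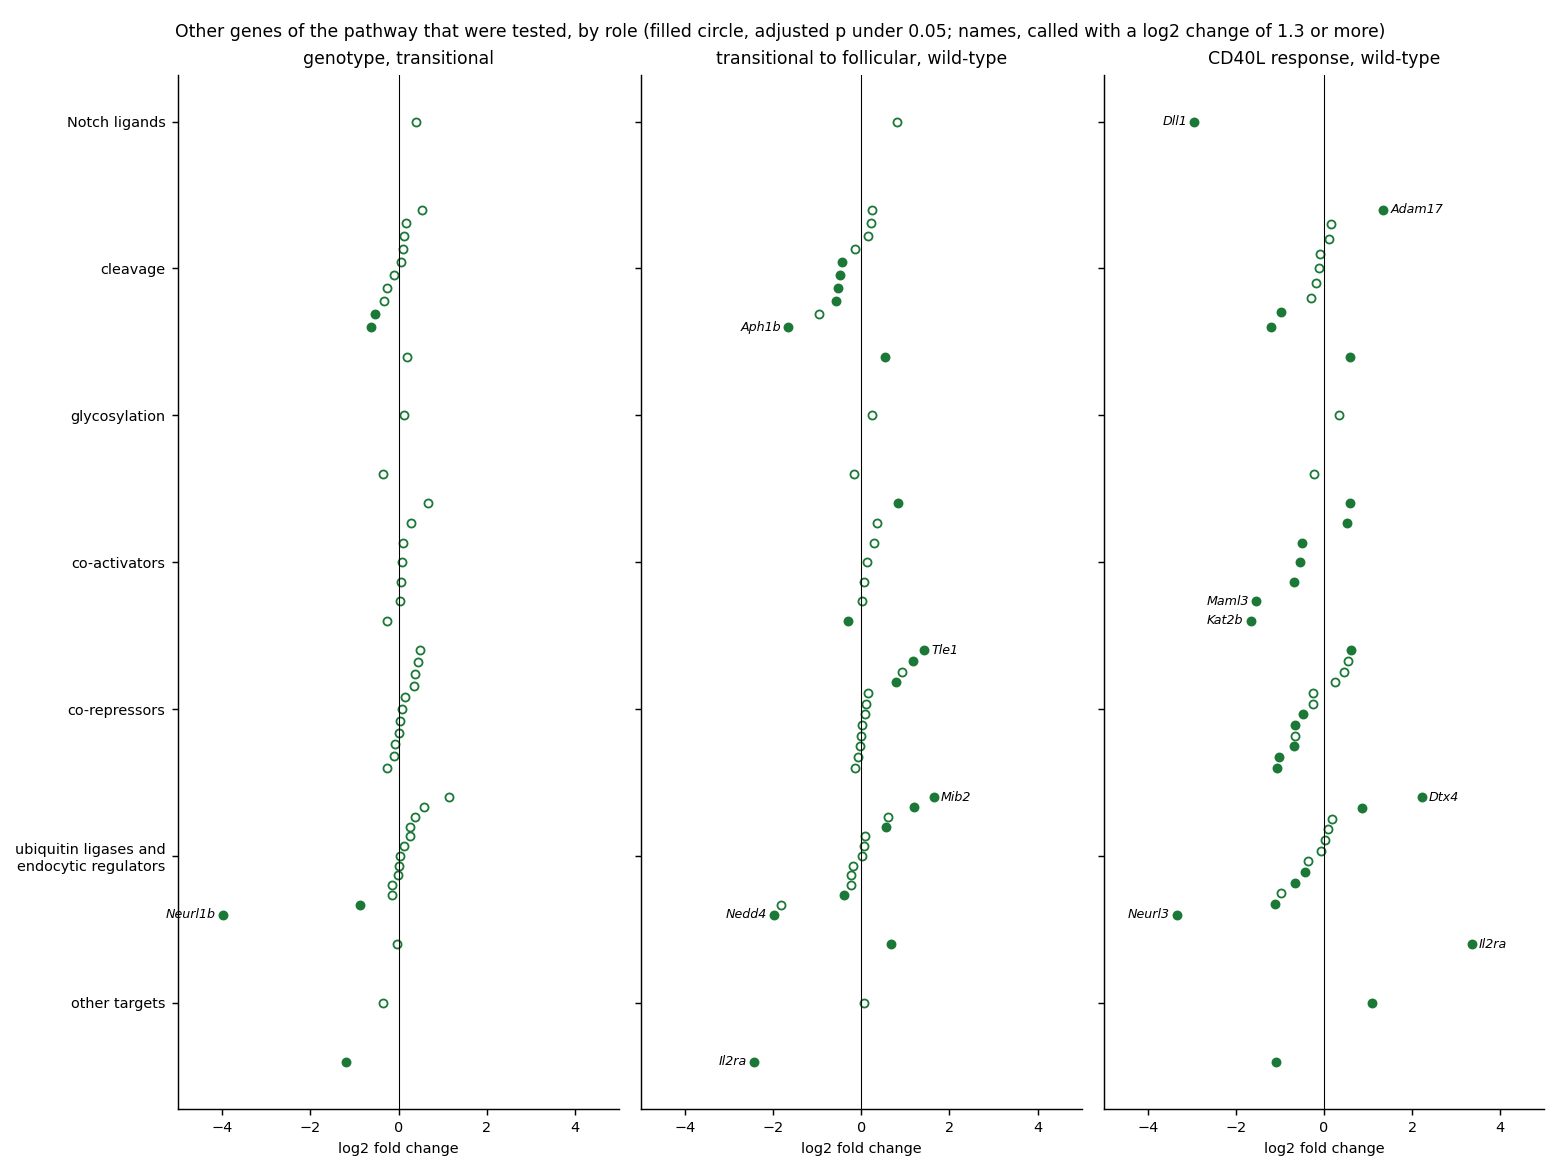
Log2 fold change (x axis) of the other pathway genes that were tested, 1 circle per gene, in rows by role, for the genotype effect in transitional cells, the difference between WT transitional and follicular cells and the WT response to CD40L. Filled circles have an adjusted p under 0.05, names mark the called genes of larger change (Neurl1b, at few counts, by its fitted value), and the CD40L panel holds the most of them (27 of 47).

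Likeness of pattern over the 18 libraries was described by Pearson's r of log2 CPM among 15117 genes, where the 6 CD40L-cultured libraries stand apart from the 12 ex vivo libraries and so shape every r. The genes most like Notch2 were Cdk19 (r = 0.975), Ctcf (0.970), Gstp-ps (0.966), Cd84 (0.965) and Slc4a7 (0.965). Those most like Dtx1 were Rasgrp2 (r = 0.979), Lbh (0.979), Ubl3 (0.978), Mier1 (0.975) and Gm45778 (0.974). No member was among either set, and within the members Dtx1 had an r of 0.929 with Notch2, 0.948 with Hes1 and 0.936 with Maml2. Rbpj ran opposite to both, with r of -0.851 with Notch2 and -0.911 with Dtx1.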

How the data were processed

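RNA of 18 libraries (6 groups of 3) was analysed, and groups and replicate numbers were read from the sample titles. The authors deposited expected counts per gene, which need not be whole and are not normalized, together with TPM and FPKM values that the authors scaled for transcript length and depth. The submitters' processing notes name cutadapt 1.9.1, STAR 2.5.2a, RSEM 1.3.0 and GRCm38, and the labels a stranded poly(A) kit, whereas the study's methods name another kit and aligner. The 54 value columns were each matched to 1 library. FPKM was not used, and TPM served only to compare genes.

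Before testing, the expected counts were made whole by rounding. The tests ran in R 4.3.3 on edgeR 4.0.16 (limma 3.58.1): TMM, filterByExpr by group, glmQLFit and glmQLFTest, Benjamini-Hochberg adjustment over all genes tested, called at an adjusted p under 0.05. The SE is the log2 fold change divided by the square root of F. Genotype effects were fitted within each state, and the maturation step, the CD40L response and their genotype differences on 12 libraries each, so that the comparisons share groups. CPM used TMM-scaled library sizes. Positions are from GENCODE M21 on GRCm38, and 51633 of 51912 identifiers had a symbol. The p-values measure the spread between the libraries of a group.

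RSEM divides reads that map to several genes. Expected counts of Notch1 and Notch2 were not whole in 18 of 18 libraries, those of Rbpj in 6, those of Maml2 in 1 and those of the remaining members in 0. Gm42819 and Gm42820 lie within Notch2 on the same strand and reached at most 112 and 250 counts in a library.

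The members and lists were chosen with earlier results of these data known. All 10 members were named. Of the other pathway genes, those called between genotypes, the 4 of lowest adjusted p, up and down, in the WT step and WT CD40L response, and Dll1, Spen, Taok3, Adam17, Nrarp, Hey1, Cr2 and Myc were named, with the 5 genes most correlated with Notch2 and with Dtx1. Of these, 1 gene is not reported here. The 11 marker lists covered B, transitional, follicular, marginal zone and plasma cells and T cells, neutrophils, macrophages, dendritic, erythroid and stromal cells. Over all libraries, summed levels ran from 12.3 to 40.2 CPM for dendritic markers. They ran from 81.5 to 408 CPM for stromal and endothelial markers (mostly Pecam1, which B cells express). For transitional and follicular markers, given above by genotype for transitional cells, they ran from 33.4 to 1010 and from 4706 to 8941 CPM.

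Same-numbered libraries deviated together between transitional and follicular cells (correlations 0.103 to 0.242 in WT and 0.115 to 0.263 in Sh3gl1-/- cells), so the numbers pair these samples. For CD40L they did in WT (0.136 to 0.224) and, more weakly, in Sh3gl1-/- cells (0.030 to 0.119). In each of these comparisons 3 of 3 libraries correlated best with the library of their own number. Between genotypes they did not deviate together (-0.088 to 0.101), with 0 or 1 of 3 best. The main tests did not use this pairing. A block of replicate number within genotype was therefore added after seeing the data. The scripts were tested on simulated counts. Alternatives were DESeq2 1.42.0, RLE normalization, 2 other filters, a fit of all 18 libraries, the replicate number as a block, and leaving out each library.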

Additional observations from a re-analysis of the deposited data

Results flagged for a closer look

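Snw1, a co-activator that binds the Notch intracellular domain complex, drew attention because every Sh3gl1-/- library lay below the WT libraries in transitional cells and above them in follicular cells. Of all genes tested, 14.4% lay lower without overlap in transitional cells and 8.06% higher in follicular cells. Snw1 was picked by this pattern from the named genes, so the tests of its steps below use the same values and are no separate support. Snw1 stood at 253, 230 and 208 CPM in WT and at 194, 194 and 184 CPM in Sh3gl1-/- transitional cells, and at 174, 193 and 190 CPM in WT and at 198, 207 and 202 CPM in Sh3gl1-/- follicular cells. The step from transitional to follicular cells ran in opposite directions without overlap, with log2 differences of -0.30 in WT (adjusted p 0.0141) and 0.07 in Sh3gl1-/- cells (adjusted p 0.652). The difference between these steps was 0.38 (SE 0.11, unadjusted p 0.00535) and did not pass the adjusted threshold (adjusted p 0.187, edgeR's quasi-likelihood test), while DESeq2 called it (0.40, adjusted p 0.0385). The WT call was lost without WT transitional replicate 1 (adjusted p 0.0531) or WT follicular replicate 1 (adjusted p 0.0665).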

How the results depend on the processing

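Calls of members were 0 for the genotype effects in transitional and cultured cells and for both differences between genotypes under every alternative run. In follicular cells DESeq2 and the filter at 1 count called 1 member. The WT step had 5 members under the alternatives, except 3 to 5 without a library and 4 with the block within genotype. The Sh3gl1-/- step had 2 with DESeq2, 0 with all 18 libraries, 2 with the replicate block or the block within genotype and 0 to 1 without a library. For CD40L, leaving out a library gave 7 to 8 members in WT and 8 to 9 in Sh3gl1-/- cells. Of the called values of members, 0 changed direction. Values near 0 without a call did cross it, such as Adam10 in cultured cells.

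Counts of all genes moved more. DESeq2 called 1271 genes between genotypes in transitional, 345 in follicular and 75 in cultured cells, 340 for the difference in the step and 29 for that in the CD40L response. The filter at 1 count gave 1426, 602, 216, 462 and 210, and the fit of all 18 libraries 144, 49, 82, 0 and 0. With the replicate block the counts were 90, 212, 21 and 20 for the first 4, and 99 for the step difference with the block within genotype, which was chosen after seeing the data. The replicate numbers pair transitional with follicular cells but not the genotypes. Without a library the counts ran from 28 (without Sh3gl1-/- replicate 3) to 479 in transitional, 32 (without Sh3gl1-/- replicate 1) to 112 in follicular and 1 to 9 in cultured cells, 2444 to 3773 for the step in WT, 986 to 1647 in Sh3gl1-/- cells and 0 to 23 for its difference, and 5981 to 7296, 5080 to 6548 and 0 to 1 for CD40L in WT, in Sh3gl1-/- cells and for their difference. The cause of these shifts was not tested. Depth limits Hes5, Nrarp, Hey1 and Dll1, which lay near 3 counts in several libraries.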

Other observations

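The marginal zone markers had mostly lower values in Sh3gl1-/- than in WT cells. In transitional cells 4 of 7 markers were called lower, with a median log2 difference of -0.66, against 0.02 over all genes tested and -0.11 over the 9 Notch members. Cd36, a scavenger receptor, stood at 128, 152 and 183 CPM in WT and at 45.2, 42.2 and 30.6 CPM in Sh3gl1-/- libraries. Cd1d1, the lipid-presenting molecule of marginal zone cells, stood at 246, 217 and 227 CPM in WT and at 139, 159 and 131 CPM in Sh3gl1-/- libraries, and Fcrl5 at 32.9, 34.0 and 35.5 against 16.0, 18.4 and 10.5 CPM. In follicular cells 1 of 7 was called lower (median -0.45), and after CD40L 0 of 7 (median -0.48, where the adjusted threshold called 3 genes in all).

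Some markers did not overlap where the test made no call. After CD40L the genotypes did not overlap for Cr2, Cd9, Mzb1 and Fcrl5, all lower in Sh3gl1-/- cells, and overlapped for Cd36, Cd1d1 and S1pr3, where 13.8% of all genes did not overlap. Mzb1 stood at 335, 373 and 340 CPM in WT and at 225, 252 and 240 CPM in Sh3gl1-/- cells, and Fcrl5 at 57.9, 49.5 and 56.8 against 33.8, 28.5 and 28.6 CPM. The list holds Cr2, which was also read as a Notch target above.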
